A study of Homo sapiens with 6 samples.

Results

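Glycolysis turns glucose into pyruvate and lactate, and the genes for its enzymes, for the transporters around it and for the hypoxia response were measured by RNA-seq in K562 cells. The 36 genes were taken as the rows of the count table whose Ensembl identifiers carry their symbols, out of 61661 identifiers. They were divided by role into 17 glycolytic enzymes, 4 transporters of glucose or lactate, 4 regulators of glycolytic flux and 11 other hypoxia genes, so that 19 genes stood outside the enzymes. A filter on low counts left 17686 genes to be tested, of which 35 were of the 36. The exception was CA9, a carbonic anhydrase of the cell surface, with 1 read in a shMETTL3 library and 0 in the other libraries, so no change of it was detectable at this depth.

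K562 is an established human line of chronic myeloid leukemia in blast phase. Its 6 libraries were 2 from shCTR cells, labelled wild type, 2 from shMETTL3 cells, labelled METTL3 knockdown, and 2 from shMETTL14 cells, labelled METTL14 knockdown. METTL3 and METTL14 form the enzyme complex that writes N6-methyladenosine (m6A) on mRNA. All cells were collected in logarithmic growth in RPMI1640 with serum, with no low-oxygen treatment given in the labels. The study's methods describe stable shCTR and shMETTL3 lines made with a lentiviral pLent-U6-GFP-puro vector and puromycin selection, with a nonsense insert in the control and a single shRNA sequence for METTL3. They do not describe the METTL14 vector. Nothing in the labels says that replicates came from separate cultures, so p-values measure the spread between these libraries, which may be technical.

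Libraries held 19292574 to 20115304 counted reads. Levels are given in CPM, counts scaled to a common library size. METTL3 stood at 90.5 and 90.3 in shCTR and at 52.5 and 46.7 in shMETTL3 libraries, a log2 fold change of -0.87 (edgeR quasi-likelihood test, adjusted p = 3.44e-07). METTL14 stood at 33.2 and 34.2 in shCTR and at 19.1 and 20.6 in shMETTL14 libraries, a log2 fold change of -0.76 (adjusted p = 1.4e-05). The 10 erythroid and leukemic markers of K562, among them GATA1 and the fetal globins, had over 3 reads in every library. Their summed level was 2078 to 2115 CPM in shMETTL3, 1918 to 1927 in shCTR and 1889 to 1914 in shMETTL14 libraries. Lists for other cell types had defining genes at or under 3 reads in every library, among them CD3E, MS4A1, CD14, MPO, FLT3 and COL1A2. Each of these lists also held 1 gene over 3 reads in every library. The epithelial list of EPCAM and keratins was the exception, with all 4 genes detected and a sum of 399 to 419 CPM in shMETTL3, 501 to 525 in shCTR and 546 to 575 in shMETTL14 libraries. The monocyte list summed to 15.6 to 16.5 CPM in shMETTL3, 42.3 to 43.9 in shCTR and 59.9 to 65.2 in shMETTL14 libraries, with LYZ as its 1 gene over 3 reads. In the same order of groups, the fibroblast list summed to 6.23 to 6.62, 2.77 to 3.44 and 3.77 to 3.83 CPM. The T cell list summed to 5.09 to 6.03, 3.24 to 3.81 and 4.34 to 4.73 CPM. The list for an MV4-11-type leukemic line summed to 5.14 to 5.93, 9.30 to 9.87 and 8.09 to 8.57 CPM. The part of these lists in the differences below was not tested. In bulk RNA, fewer cells of a type and less RNA per cell cannot be told apart.

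Glycolysis runs from glucose uptake by SLC2A transporters, through hexokinase, phosphofructokinase and the later enzymes, to pyruvate, which lactate dehydrogenase reduces to lactate. In low oxygen, the prolyl hydroxylases of the EGLN family no longer mark HIF1A and EPAS1 (HIF-2 alpha) for destruction by the VHL ligase, and HIF dimers then bind a short motif, the hypoxia response element, near many of these genes. K562 and other leukemia cells carry out glycolysis in full oxygen as well.

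Promoters are shown for 5 of the genes that passed the test in shMETTL3 cells below and that differ in this motif. They are given as RefSeq has them on GRCh38.p14, from 250 bases before to 50 bases after the start. Capitals mark ACGTG or GCGTG, the core of the element, or their reverse complements CACGT and CACGC. A run CACGTG holds ACGTG on both strands. PGK1 lies at chrX:78103998-78104297 on the plus strand, LDHA at chr11:18394313-18394612 on the plus strand, ADM at chr11:10304823-10305122 on the plus strand, SLC2A1 at chr1:42958819-42959118 on the minus strand and EGLN3 at chr14:33951025-33951324 on the minus strand.
PGK1: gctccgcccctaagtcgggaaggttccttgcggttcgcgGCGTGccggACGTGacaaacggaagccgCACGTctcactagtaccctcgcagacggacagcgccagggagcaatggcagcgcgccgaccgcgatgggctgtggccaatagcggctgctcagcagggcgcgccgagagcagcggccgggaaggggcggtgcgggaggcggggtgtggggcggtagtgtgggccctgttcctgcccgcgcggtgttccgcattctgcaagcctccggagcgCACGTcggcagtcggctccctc
LDHA: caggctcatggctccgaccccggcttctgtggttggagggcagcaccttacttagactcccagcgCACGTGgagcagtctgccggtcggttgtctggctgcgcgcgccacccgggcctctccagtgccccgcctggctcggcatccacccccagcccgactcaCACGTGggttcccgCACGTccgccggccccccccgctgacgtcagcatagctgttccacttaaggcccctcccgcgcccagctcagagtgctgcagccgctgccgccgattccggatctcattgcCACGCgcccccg
ADM: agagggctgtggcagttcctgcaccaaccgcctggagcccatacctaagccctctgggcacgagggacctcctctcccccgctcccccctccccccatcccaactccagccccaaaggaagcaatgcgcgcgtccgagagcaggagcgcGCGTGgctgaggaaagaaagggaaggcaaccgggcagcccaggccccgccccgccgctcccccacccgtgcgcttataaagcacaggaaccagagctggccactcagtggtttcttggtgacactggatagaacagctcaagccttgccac
SLC2A1: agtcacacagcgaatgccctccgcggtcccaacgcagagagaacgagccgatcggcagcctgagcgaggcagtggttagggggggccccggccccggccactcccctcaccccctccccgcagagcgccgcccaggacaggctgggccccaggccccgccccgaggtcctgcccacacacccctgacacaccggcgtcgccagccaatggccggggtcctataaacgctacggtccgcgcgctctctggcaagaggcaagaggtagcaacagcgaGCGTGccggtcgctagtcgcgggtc
EGLN3: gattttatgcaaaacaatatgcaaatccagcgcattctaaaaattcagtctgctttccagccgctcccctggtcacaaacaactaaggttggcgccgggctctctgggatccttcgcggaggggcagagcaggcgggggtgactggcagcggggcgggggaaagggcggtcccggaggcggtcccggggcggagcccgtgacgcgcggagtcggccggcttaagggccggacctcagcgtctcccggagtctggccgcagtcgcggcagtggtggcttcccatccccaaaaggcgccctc
The PGK1 window held ACGTG 3 times and GCGTG once, and the LDHA window held ACGTG 5 times and GCGTG once, counted over both strands. ADM and SLC2A1 held a single GCGTG each, and EGLN3 held neither word in these letters. Promoters of 31 of the 36 genes were matched, and 23 of them (74.2%) held ACGTG or GCGTG, against 48.4% of 27305 promoters and 62.9% of the 11076 promoters of tested genes. By role the share was 70.6% of 17 enzymes and 87.5% of 8 other hypoxia genes. A match of these letters is a description of the sequence and not a bound site.

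In shMETTL3 cells, 14 of the 35 tested genes passed the edgeR quasi-likelihood test at a Benjamini-Hochberg adjusted p under 0.05, against 16.5% of all genes tested. Of these, 7 rose (PFKP, SLC2A1, PFKFB3, VEGFA, ADM, EGLN1 and NDRG1), against 8.73% of all genes, and 7 fell (PGK1, PKM, LDHA, PFKFB4, BNIP3, EGLN3 and EPAS1), against 7.73%. Scaled by library totals and no TMM factors, 7 rose and 4 fell (2158 and 858 of all genes), and with a correction for GC content and length 6 rose and 11 fell (1653 and 1887 of all genes). Fewer passed without shMETTL3 replicate 1 or without shMETTL3 replicate 2, both among these genes and over all genes tested. In 25 of the 35 genes (71.4%) the shMETTL3 and shCTR libraries did not overlap, against 56.0% of all genes. These genes were read more deeply than most, with a median of 97.9 CPM against 15.8 CPM over all genes tested, and the part of depth in the counts was not tested. In shMETTL14 cells, 3 of the 35 passed, against 6.69% of all genes: EGLN1 and NDRG1 rose, against 3.43%, and VEGFA fell, against 3.26%. Between the knockdowns, which share no library, 10 of the 35 differed, against 12.1% of all genes, with 4 higher in shMETTL3 (6.65% of all genes) and 6 lower (5.49%), or 4 and 12 with the GC and length correction (1470 and 1566 of all genes).

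**Figure D1:**
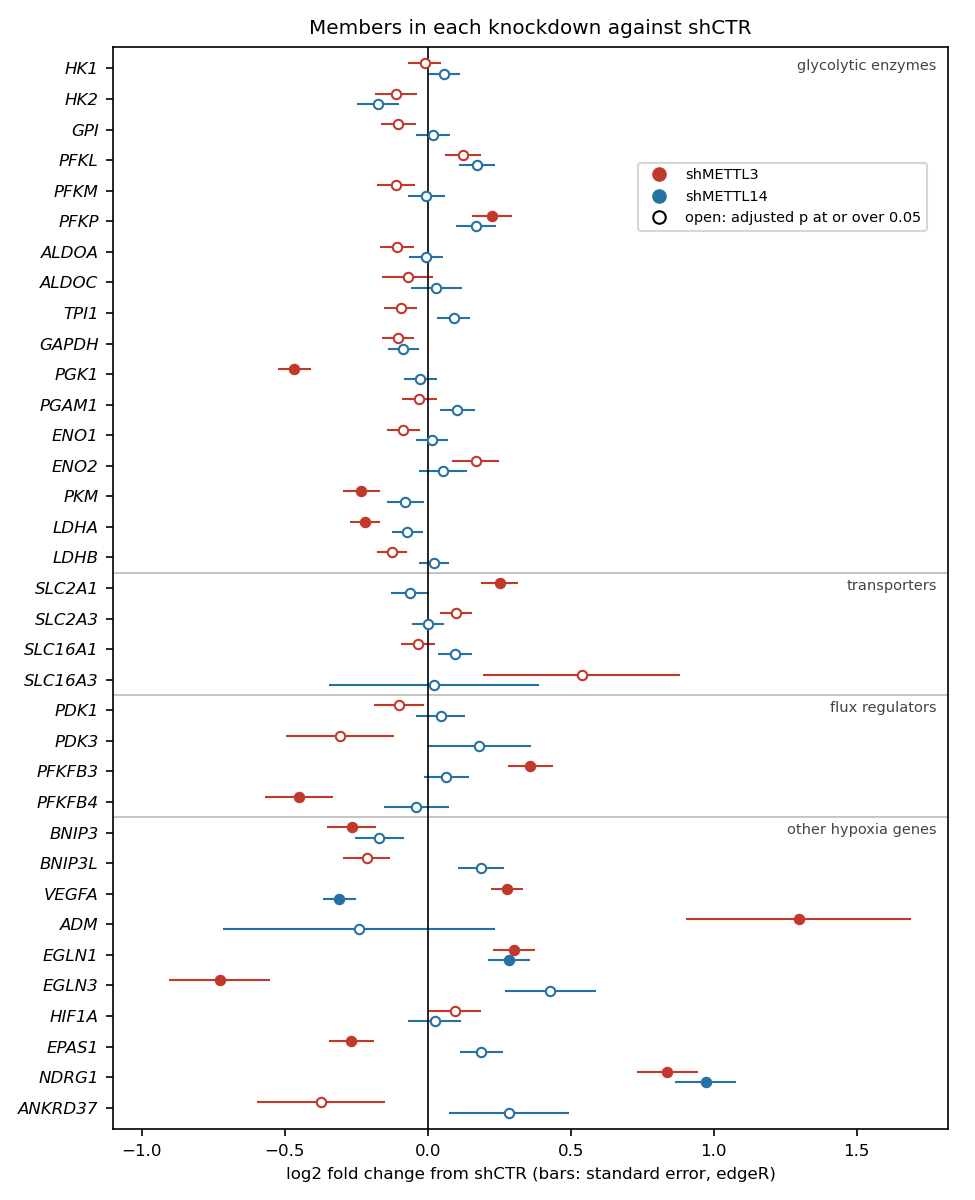
Log2 fold change from shCTR (horizontal axis, bars are standard errors of the edgeR fit) of the 35 tested genes, in rows by role, in shMETTL3 (red) and shMETTL14 (blue), with open points for an adjusted p at or over 0.05. Most enzymes in shMETTL3 sit left of 0 with PGK1 farthest at -0.47, while VEGFA, EGLN3 and EPAS1 lie on opposite sides of 0 in the 2 knockdowns.

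The glycolytic enzymes formed the most abundant group, and in shMETTL3 cells 14 of the 17 stood lower than in shCTR and 3 higher. PGK1, PKM and LDHA fell, PFKP rose, and 13 did not pass the test. The median log2 fold change was -0.10, against 0.00299 over all genes tested. Scaled by library size alone it was -0.05, with 12 of the 17 lower, against a median of 0.0584 over all genes tested. The summed level of the 17 genes was 7457 and 7890 CPM in shCTR, 7096 and 7182 CPM in shMETTL3, and 7815 and 7584 CPM in shMETTL14 libraries. Both shMETTL3 libraries thus held the lowest sums, at 0.710% and 0.718% of scaled reads.

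Per kilobase of merged exons, ENO1 was the highest enzyme in shCTR cells at 339 ± 24.1 CPM per kb (SD, n = 2), followed by GAPDH at 336 ± 14.8, LDHB at 303 ± 1.81 and ALDOA at 228 ± 17.6. On this measure ENO1 and GAPDH did not differ beyond their spread. Below them came TPI1 at 125 ± 4.52, LDHA at 96.4 ± 0.0243, HK1 at 83.0 ± 3.73, PGAM1 at 78.2 ± 4.49 and PGK1 at 56.6 ± 0.0968 CPM per kb, of which HK1 and PGAM1 did not differ beyond their spread. The phosphofructokinases, GPI, PKM, HK2, ALDOC and ENO2 lay between 6.79 and 32.8 CPM per kb. On this measure the highest levels belonged to enolase, glyceraldehyde-3-phosphate dehydrogenase, lactate dehydrogenase and aldolase. The order rests on the length used. Merged exons covered 6210 bases in LDHA, 5276 in ENO1 and 2981 in GAPDH, where the longest transcripts had 2416, 2548 and 1875.

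**Figure D2:**
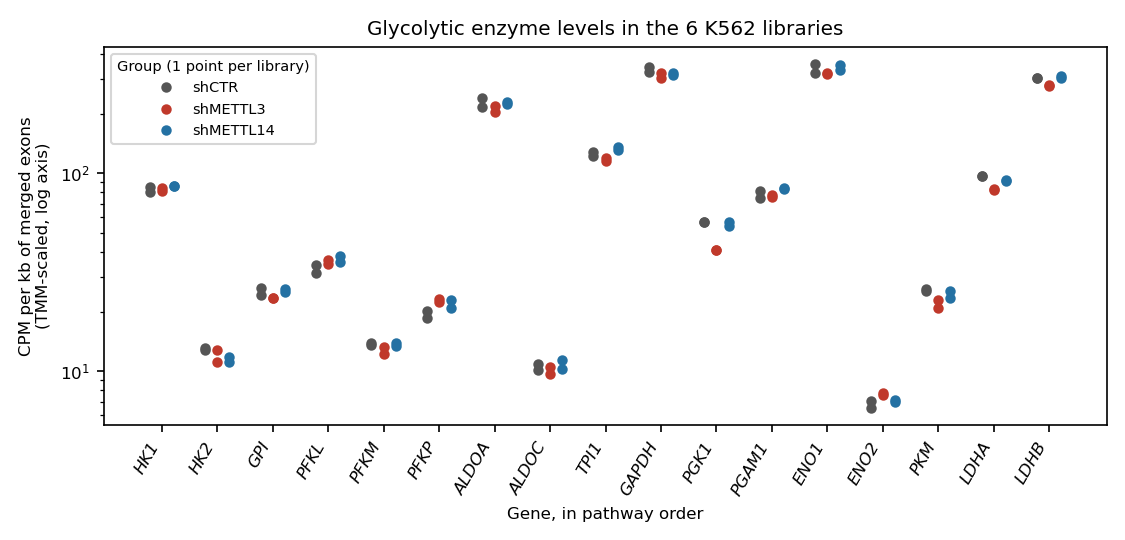
Level of the 17 glycolytic enzymes (vertical log axis, CPM per kb of merged exons) in pathway order, with 1 point for each of the 2 libraries of shCTR (grey), shMETTL3 (red) and shMETTL14 (blue). ENO1 and GAPDH stand at the top above 300 CPM per kb, and PGK1 is the gene whose shMETTL3 points lie clearly below the others.

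PGK1 encodes phosphoglycerate kinase, the first enzyme of the pathway to make ATP, and its level was 312 and 312 CPM in shCTR, 225 and 227 in shMETTL3, and 314 and 299 in shMETTL14 libraries. Only the shMETTL3 libraries were low. PGK1 fell in shMETTL3, with a log2 fold change of -0.47 ± 0.06 (SE, edgeR, adjusted p = 1.57e-05), against -0.03 in shMETTL14 (adjusted p = 0.849). The fall in shMETTL3 passed under each of the 8 other settings and each of the 6 fits without 1 library. The GENCODE 29 span of PGK1 (chrX:77910739-78129296) begins well upstream of the RefSeq start used for its promoter, and 2 rows for PGK1 pseudogenes held few reads beside it.

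LDHA and LDHB encode the subunits of lactate dehydrogenase, the M and H forms. LDHA stood at 599 and 598 CPM in shCTR, 513 and 514 in shMETTL3, and 565 and 574 in shMETTL14 libraries. All 4 knockdown libraries were below both shCTR libraries, and the shMETTL3 libraries were the lowest. It fell in shMETTL3 (log2 fold change -0.22, edgeR, adjusted p = 0.00779) and had -0.07 in shMETTL14 (adjusted p = 0.486). The call was lost without shMETTL3 replicate 1 (adjusted p = 0.0884) and without shMETTL3 replicate 2 (adjusted p = 0.105), with the same size of change. LDHB, the more abundant subunit, stood at 908 and 900 CPM in shCTR and at 832 and 826 in shMETTL3 libraries, which did not overlap, but it did not pass (log2 fold change -0.13, adjusted p = 0.108).

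PKM encodes the pyruvate kinase of most cells, which makes pyruvate and ATP. It stood at 218 and 223 CPM in shCTR, 180 and 196 in shMETTL3, and 218 and 200 in shMETTL14 libraries. The shMETTL3 libraries lay below the other 4. PKM fell in shMETTL3 (log2 fold change -0.23, edgeR, adjusted p = 0.0187), a call lost without shMETTL3 replicate 1 (adjusted p = 0.238) and with library size alone (adjusted p = 0.07). In shMETTL14 it was -0.08 (adjusted p = 0.531). Counts per gene do not tell the PKM splice forms apart.

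PFKP, the platelet form of phosphofructokinase, was the enzyme that rose, from 89.7 and 97.7 CPM in shCTR to 108 and 111 in shMETTL3 libraries. The groups did not overlap (log2 fold change 0.22, edgeR, adjusted p = 0.0309). This call was the least firm of the enzymes: of the 6 fits without 1 library it passed only without shCTR replicate 2, and in the others the adjusted p ran from 0.0523 to 0.226. With correction for GC content and length it was 0.13 (adjusted p = 0.108), and it did not pass in DESeq2 (0.0502) or with no filter (0.072). In shMETTL14 libraries PFKP stood at 110 and 101 CPM, also above shCTR, and did not pass (log2 fold change 0.17, adjusted p = 0.164).

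The other 12 enzymes, beside LDHB, did not pass in shMETTL3 cells, with log2 fold changes from -0.11 to 0.17. ALDOA, GPI, TPI1, GAPDH and ENO1 had values from -0.11 to -0.09. With correction for GC content and length, GPI, ALDOA, TPI1 and GAPDH passed as lower beside PGK1, PKM and LDHA, and none passed as higher. Over all genes tested, 1653 passed as higher and 1887 as lower with it. The median of the 17 enzymes was then -0.15. HK1 (-0.01), PGAM1 (-0.03) and ALDOC (-0.07) were nearest to 0 among those below it. PFKL, the liver form of phosphofructokinase, had 0.12 and ENO2, the enolase of neurons, had 0.17, and PFKL changed sign under the same correction, to -0.06.

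In shMETTL14 cells none of the 17 enzymes passed by edgeR or DESeq2 over the 6 libraries, and 3 (HK2, PFKL and PFKP) had an unadjusted p under 0.05, as had 3665 of the 17686 genes tested. PFKL and PFKP passed without shCTR replicate 2, and HK2 and GAPDH with the replicate block and the GC and length correction together. The median over the 17 was 0.02 on the log2 scale, with 10 higher and 7 lower and a range from -0.18 (HK2, the inducible hexokinase) to 0.17 (PFKL and PFKP). HK2 stood at 77.5 and 79.4 CPM in shCTR and at 71.7 and 67.3 in shMETTL14 libraries, without overlap (edgeR, adjusted p = 0.175).

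Shares of isozymes, taken from CPM per kb of merged exons, showed which form was read most in these cells. HK1 made up 86.3% to 88.6% of HK1 and HK2, ALDOA 95.1% to 95.9% of ALDOA and ALDOC, and ENO1 97.6% to 98.1% of ENO1 and ENO2 over the 6 libraries. LDHA made up 24.0% and 24.2% of both lactate dehydrogenase genes in shCTR, 22.9% and 23.0% in shMETTL3, and 23.0% and 22.9% in shMETTL14 libraries. Both knockdowns thus lay about 1 percentage point under shCTR, by more than the difference within any group. PFKP made up 29.3% and 29.5% of the phosphofructokinases in shCTR, 30.9% and 32.8% in shMETTL3 and 30.6% and 29.5% in shMETTL14 libraries. Per kb of the longest transcript, the LDHA share was 29.6% and 29.7% in shCTR, 28.2% and 28.4% in shMETTL3, and 28.4% and 28.2% in shMETTL14 libraries. These shares are given with no test.

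**Figure D3:**
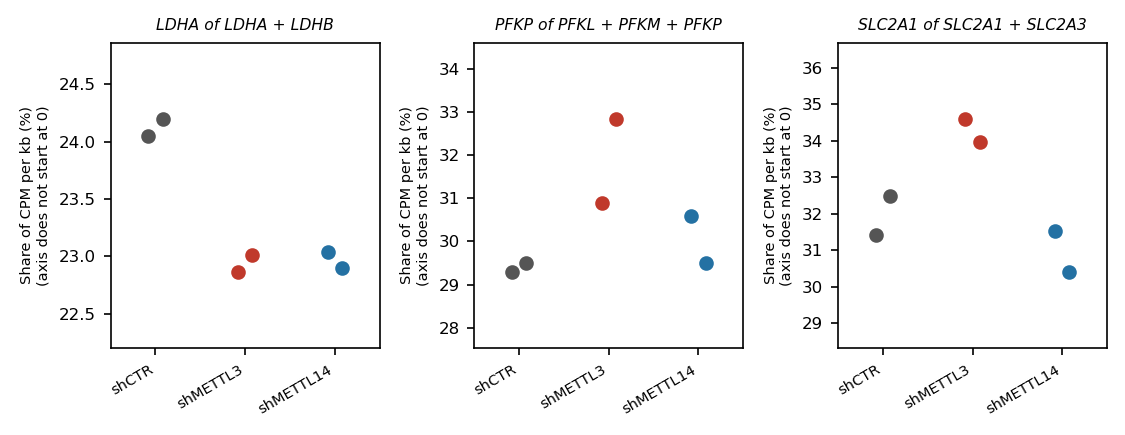
Share of LDHA in LDHA and LDHB, of PFKP in the 3 phosphofructokinases and of SLC2A1 in SLC2A1 and SLC2A3 (vertical axis in percent of CPM per kb, not starting at 0), with 1 point per library in shCTR, shMETTL3 and shMETTL14. LDHA is at 24.0% and 24.2% in shCTR and between 22.9% and 23.0% in both knockdowns, while the SLC2A1 share is highest in shMETTL3.

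Among the transporters, SLC2A1, the widely expressed glucose carrier, rose in shMETTL3 cells. It stood at 101 and 104 CPM in shCTR, 123 and 121 in shMETTL3, and 102 and 94.6 in shMETTL14 libraries. Only the shMETTL3 libraries were high. The log2 fold change was 0.25 in shMETTL3 (edgeR, adjusted p = 0.011) and -0.06 in shMETTL14 (adjusted p = 0.643). The rise did not pass without shMETTL3 replicate 1 (adjusted p = 0.0956) or without shMETTL3 replicate 2 (adjusted p = 0.0784).

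SLC2A3, the high-affinity glucose carrier, was the more abundant of the pair per kb, at 46.2 ± 0.587 CPM per kb in shCTR against 21.7 ± 0.471 for SLC2A1 (SD, n = 2). It stood at 287 and 282 CPM in shCTR and at 303 and 307 in shMETTL3 libraries, and did not pass (log2 fold change 0.10, edgeR, adjusted p = 0.254). SLC2A1 made up 31.4% and 32.5% of both in shCTR, 34.6% and 34.0% in shMETTL3, and 31.5% and 30.4% in shMETTL14 libraries. The lactate carrier SLC16A1 had log2 fold changes of -0.03 and 0.10 in shMETTL3 and shMETTL14, neither past the test. SLC16A3, the lactate exporter of glycolytic tissues, was barely read, with 19 to 39 reads a library, and its value of 0.54 in shMETTL3 (adjusted p = 0.309) rested on overlapping libraries.

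The flux regulators split in shMETTL3 cells. PFKFB3 and PFKFB4 both make and break fructose-2,6-bisphosphate, the activator of phosphofructokinase, and PFKFB3 is known for strong kinase activity. PFKFB3 stood at 31.4 and 31.2 CPM in shCTR, 40.8 and 39.6 in shMETTL3, and 32.2 and 33.3 in shMETTL14 libraries. It rose in shMETTL3 (log2 fold change 0.36, edgeR, adjusted p = 0.00355), under each of the 8 other settings and the 6 fits without 1 library. PFKFB4 went the other way, from 13.6 and 14.9 CPM in shCTR to 10.3 and 10.6 in shMETTL3 libraries, with 14.6 and 13.2 in shMETTL14 libraries. It fell in shMETTL3 (log2 fold change -0.45, edgeR, adjusted p = 0.0129), a call lost without shMETTL3 replicate 1 (0.0911), without shMETTL3 replicate 2 (0.0818) and in DESeq2 (0.0524).

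Neither of these genes passed in shMETTL14 cells, with log2 fold changes of 0.06 and -0.04. PDK1 and PDK3 encode kinases that shut off pyruvate dehydrogenase and so keep pyruvate out of the mitochondria. PDK1 had -0.10 in shMETTL3 and 0.04 in shMETTL14, with overlapping libraries. PDK3, read 72 to 109 times a library, had -0.31 and 0.18, and neither value passed (edgeR, adjusted p = 0.288 and 0.631).

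**Figure D4:**
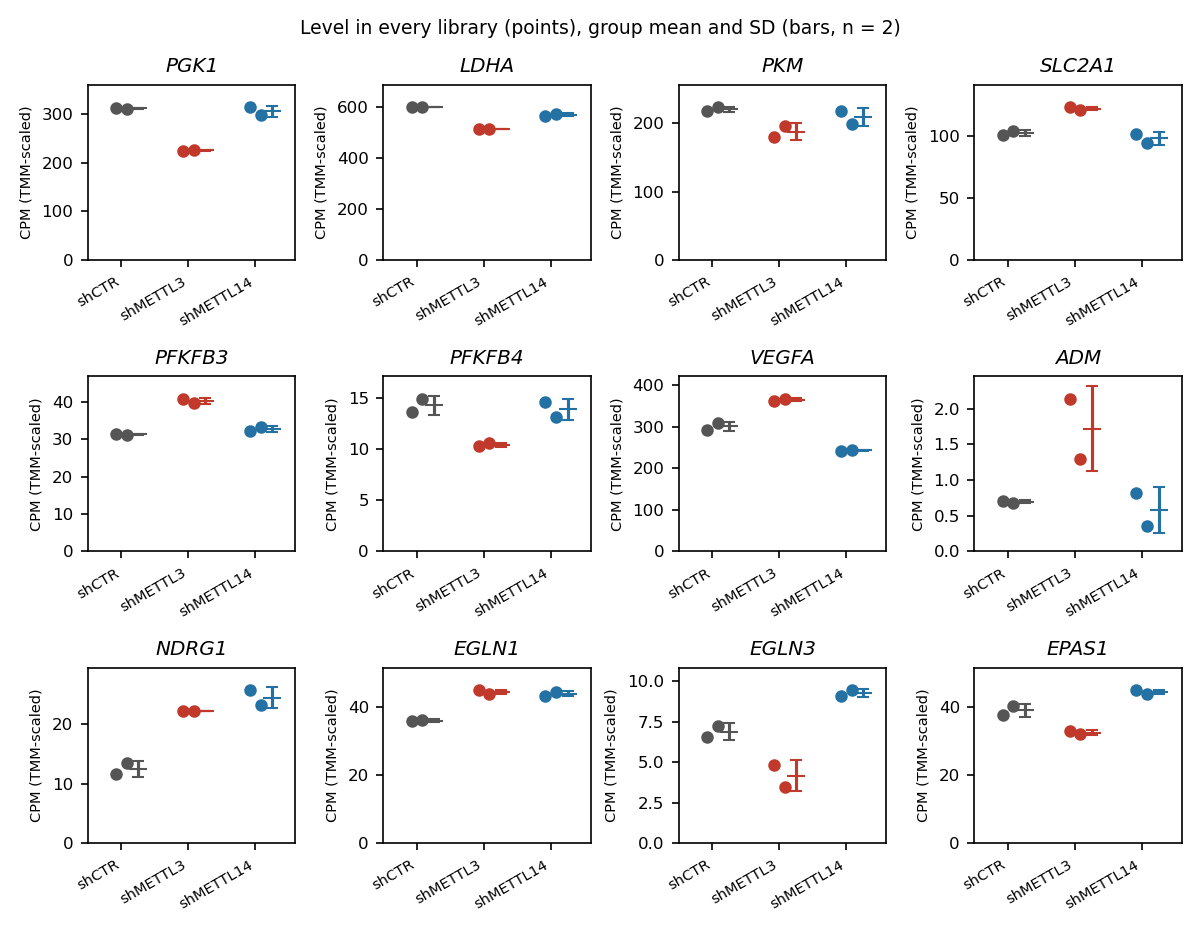
Level of 12 of the genes that passed a test (vertical axes, CPM, each starting at 0) in every library of shCTR (grey), shMETTL3 (red) and shMETTL14 (blue), with the group mean and SD (n = 2) beside the points. PGK1, LDHA, PKM and PFKFB4 are low in shMETTL3, NDRG1 and EGLN1 are high in both knockdowns, and VEGFA and EGLN3 place the 2 knockdowns on opposite sides of shCTR.

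Of the oxygen-sensing genes, the HIF1A transcript itself did not pass in either knockdown. It stood at 25.5 and 25.7 CPM in shCTR, 29.4 and 25.3 in shMETTL3, and 26.3 and 25.8 in shMETTL14 libraries, with log2 fold changes of 0.09 (edgeR, adjusted p = 0.534) and 0.02 (adjusted p = 0.919). HIF1A is governed mainly at the protein level, which was not measured here. EPAS1, which encodes HIF-2 alpha, stood at 37.5 and 40.3 CPM in shCTR, 32.8 and 31.8 in shMETTL3, and 44.8 and 43.9 in shMETTL14 libraries. The 3 groups did not overlap, with shMETTL3 lowest and shMETTL14 highest.

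EPAS1 fell in shMETTL3 (log2 fold change -0.27, edgeR, adjusted p = 0.0232). That call was lost without shCTR replicate 2 (adjusted p = 0.0736), without shMETTL3 replicate 1 (0.0972), without shMETTL3 replicate 2 (0.196) and under 4 other settings (0.0503 to 0.0687). In shMETTL14 its log2 fold change was 0.19 and did not pass (adjusted p = 0.16). The difference between the knockdowns was firmer, at -0.45 (edgeR, adjusted p = 0.000451), and passed in each fit without 1 library.

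EGLN1, the main prolyl hydroxylase that marks HIF in normal oxygen, was read more in both knockdowns. It stood at 35.9 and 36.4 CPM in shCTR, 45.1 and 44.1 in shMETTL3, and 43.5 and 44.5 in shMETTL14 libraries. All 4 knockdown libraries were above both shCTR libraries. The log2 fold change was 0.30 in shMETTL3 (edgeR, adjusted p = 0.00823) and 0.28 in shMETTL14 (adjusted p = 0.0242), comparisons that share their control libraries. The first call was lost without shMETTL3 replicate 1 (0.082) and without shMETTL3 replicate 2 (0.062). The second passed only without shCTR replicate 2 among the 6 fits, with adjusted p from 0.0507 to 0.199 in the others, and did not pass in DESeq2 (0.0714) or with no filter (0.0659).

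EGLN3, a prolyl hydroxylase that is itself induced through HIF in many cells, showed a pattern of its own with few reads. The libraries held 129 and 139 reads in shCTR, 95 and 70 in shMETTL3, and 179 and 185 in shMETTL14, or 6.53 and 7.26, 4.84 and 3.49, and 9.11 and 9.44 CPM. The 3 groups did not overlap. EGLN3 fell in shMETTL3 (log2 fold change -0.73 ± 0.18, edgeR, adjusted p = 0.00754), a call lost without shMETTL3 replicate 2 (log2 fold change -0.51, adjusted p = 0.162). In shMETTL14 its value was 0.43 (adjusted p = 0.12), and between the knockdowns the difference of -1.16 (adjusted p = 9.88e-05) passed in each fit.

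VEGFA encodes the growth factor of blood vessels and is a textbook HIF target. It had 5799 and 5929 reads in shCTR, 7128 and 7378 in shMETTL3, and 4773 and 4781 in shMETTL14 libraries, or 293.4 and 310, 363 and 368, and 243 and 244 CPM. The 3 groups did not overlap, with shMETTL3 highest and shMETTL14 lowest. It rose in shMETTL3 (log2 fold change 0.28, edgeR, adjusted p = 0.00239) and fell in shMETTL14 (-0.31, adjusted p = 0.00216). The rise passed in each fit without 1 library, and the fall in each but that without shMETTL14 replicate 1 (adjusted p = 0.052). Between the knockdowns the difference was 0.59 (adjusted p = 7.64e-07), a fold of 1.501.

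ADM encodes adrenomedullin, a secreted peptide that widens blood vessels. It was near the lower end of what could be tested, with 14 and 13 reads in shCTR, 42 and 26 in shMETTL3, and 16 and 7 in shMETTL14 libraries. Both shMETTL3 libraries were above the other 4. The log2 fold change was 1.30 ± 0.39 in shMETTL3 (edgeR, adjusted p = 0.0285), lost without shCTR replicate 1 (0.111), without shCTR replicate 2 (0.0893) and without shMETTL3 replicate 1 (log2 fold change 0.90, adjusted p = 0.298), and DESeq2 gave it no adjusted p. In shMETTL14 it was -0.24 (adjusted p = 0.828).

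NDRG1, a stress-induced gene linked to differentiation, rose in both knockdowns. Its reads were 229 and 257 in shCTR, 439 and 448 in shMETTL3, and 506 and 457 in shMETTL14 libraries. All 4 knockdown libraries were above both shCTR libraries. The log2 fold change was 0.84 ± 0.11 in shMETTL3 (edgeR, adjusted p = 2.46e-05) and 0.97 ± 0.11 in shMETTL14 (adjusted p = 6.84e-06), folds of 1.79 and 1.96 against the same control libraries. Both calls passed under every other setting and every fit without 1 library.

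BNIP3 and BNIP3L encode receptors that send mitochondria to autophagy, and BNIP3L does so in maturing red cells. BNIP3 stood at 45.1 and 45.0 CPM in shCTR, 35.6 and 39.3 in shMETTL3, and 36.7 and 43.4 in shMETTL14 libraries. It fell in shMETTL3 (log2 fold change -0.27, edgeR, adjusted p = 0.0393), but of the fits without 1 library only those without a shMETTL14 library kept the call, the others giving 0.0574 to 0.297, and it was lost in DESeq2 (0.0947), with library size alone (0.101) and with no filter (0.0863). Rows for BNIP3 pseudogenes held 36 to 70 reads, 7.15% of its own reads, the largest such share among these genes, so its count is uncertain to that extent. BNIP3L stood at 46.1 and 43.2 CPM in shCTR, 40.8 and 36.3 in shMETTL3, and 48.1 and 53.5 in shMETTL14 libraries. Its groups did not overlap, and it passed against shCTR in neither knockdown (log2 fold change -0.21, adjusted p = 0.0852, and 0.19, adjusted p = 0.194).

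ANKRD37, a small HIF target, had 56 and 62 reads in shCTR, 46 and 47 in shMETTL3, and 68 and 77 in shMETTL14 libraries. The groups did not overlap, but neither value passed (log2 fold change -0.37, adjusted p = 0.277, and 0.28, adjusted p = 0.481). Over the 18 tested genes outside the enzymes, the median log2 fold change was 0.03 in shMETTL3, with 6 up and 4 down past the test (8.73% and 7.73% of all genes), and 0.05 in shMETTL14, with 2 up and 1 down (3.43% and 3.26%). These 18 genes, which include HIF1A and EPAS1 beside HIF targets, thus held members past the test in both directions in shMETTL3 cells.

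Set directly against each other, shMETTL3 and shMETTL14 cells differed in 10 of these genes. SLC2A1 (log2 fold change 0.31, edgeR, adjusted p = 0.00253), PFKFB3 (0.29, adjusted p = 0.0157), ADM (1.54, adjusted p = 0.0157) and VEGFA were higher in shMETTL3. PGK1 (-0.44, adjusted p = 2.56e-05), PFKFB4 (-0.41, adjusted p = 0.0269), BNIP3L (-0.40, adjusted p = 0.00247), TPI1 (-0.19, adjusted p = 0.0406), EGLN3 and EPAS1 were lower. PGK1 differed by about as much as it did from shCTR. Among these 10, the calls of PGK1, VEGFA, EGLN3 and EPAS1 passed in all 6 fits without 1 library, and without shMETTL14 replicate 2 those 4 were the ones left. Fewer also passed without shMETTL3 replicate 1, without shMETTL3 replicate 2 or without shMETTL14 replicate 1. Over all genes tested, too, fewer passed without a library of either knockdown. DESeq2 did not pass ADM (adjusted p = 0.1), PFKFB3 (0.0628) or PFKFB4 (0.12), library size alone did not pass TPI1 (0.0889), and with no filter on low counts TPI1 (0.0677) and PFKFB4 (0.0701) did not pass.

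Other genes of the same pathways were read as well. Of 50 further genes of glycolysis, pyruvate use and the pentose phosphate branch, 38 were tested, and in shMETTL3 cells 1 rose and 5 fell (8.73% and 7.73% of all genes, 16.5% together). TXNIP, which restrains glucose uptake, rose (log2 fold change 0.41, edgeR, adjusted p = 0.000128). MPC1 (-0.26) and MPC2 (-0.59), the subunits of the mitochondrial pyruvate carrier, fell, as did RPIA (-0.39), RPE (-0.31) and TKT (-0.23) of the pentose phosphate branch. Without a shMETTL3 library, MPC1 (adjusted p = 0.0639 and 0.169), TKT (0.108 and 0.071) and RPE (0.25, without replicate 2) lost the call, as did MPC1 with the GC and length correction (0.0506), and RPE also lost it without shCTR replicate 1 (0.0629). TXNIP, MPC2 and RPIA passed in each fit.

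In shMETTL14 cells, 2 of the 38 rose and 3 fell, against 3.43% and 3.26% of all genes. BSG, the partner protein of the lactate carriers, rose from 363 and 423 CPM to 538 and 520 (log2 fold change 0.43, edgeR, adjusted p = 0.000327), in every fit without 1 library. PKLR, the pyruvate kinase of red cells and liver (-0.67, adjusted p = 0.043), RPIA (-0.30, adjusted p = 0.0114) and MPC2 (-0.27, adjusted p = 0.0217) fell. The 3 falls were lost without either shMETTL14 library (adjusted p from 0.115 to 0.261), and that of PKLR in every fit without 1 library (0.0614 to 0.261). PKLR also lost its call in DESeq2 (0.185), with library size alone (0.0517), with no filter (0.084) and with the compared groups alone (0.0553), and MPC2 with no filter (0.0503).

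Of 54 further genes of oxygen sensing and the hypoxia response, 45 were tested, and in shMETTL3 cells 5 rose and 5 fell (8.73% and 7.73% of all genes). VHL, the ligase subunit that captures hydroxylated HIF, rose from 154 and 158 to 188 and 184 CPM (log2 fold change 0.26, edgeR, adjusted p = 0.00597). ARNT, the partner of both HIF alpha proteins, fell (-0.25, adjusted p = 0.0221), as did CITED2, which competes with HIF for its coactivators (-0.96, adjusted p = 1.31e-07). CITED2 had the largest fall of the 45, from 71.0 and 75.2 to 40.9 and 34.3 CPM. The HIF targets BHLHE41 (1.20), ANGPTL4 (1.20), TF (0.57) and BHLHE40 (0.40) rose, and GBE1 (-0.59), JMJD6 (-0.25) and WSB1 (-0.25) fell. CITED2, BHLHE40, BHLHE41 and GBE1 passed in each fit without 1 library. VHL lost its call without shMETTL3 replicate 1 (0.0753) and replicate 2 (0.0521), WSB1 without shMETTL3 replicate 2 (0.184), and ARNT, TF, ANGPTL4 and JMJD6 in 3 to 5 of the 6 fits (0.0578 to 0.516), shMETTL3 replicate 2 and at least 1 shCTR library among those left out for each. DESeq2 did not pass ANGPTL4 (0.121), TF (0.0605) or JMJD6 (0.108), library size alone did not pass ARNT (0.0728) or JMJD6 (0.116), no filter ended ANGPTL4 (0.0503) and JMJD6 (0.101), and the compared groups alone ended JMJD6 (0.0777).

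In shMETTL14 cells 3 of the 45 rose and 2 fell, against 3.43% and 3.26% of all genes. BHLHE40, a repressor of the circadian and hypoxia programs, rose from 103 and 98.1 to 129 and 127 CPM (log2 fold change 0.35, edgeR, adjusted p = 0.00158) and passed in each fit. LOXL2, a collagen crosslinker (1.11, adjusted p = 0.02), and PLOD1, a collagen hydroxylase (0.25, adjusted p = 0.0465), rose, and DDIT4, an inhibitor of mTORC1 (-0.34, adjusted p = 0.00252), and GBE1, the glycogen branching enzyme (-0.30, adjusted p = 0.00898), fell. DDIT4 lost its call without shMETTL14 replicate 2 (0.0807), GBE1 without either shMETTL14 library (0.0701 and 0.156), and LOXL2 and PLOD1 in 3 and 4 of the 6 fits (0.0775 to 0.565), shCTR replicate 1 and shMETTL14 replicate 1 among those left out for each. DESeq2 did not pass LOXL2 (0.103) or PLOD1 (0.0701), and PLOD1 was also lost with no filter (0.112) and with the compared groups alone (0.0645). The medians of both wider lists lay between -0.05 and 0.01 in the comparisons with shCTR.

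The word GGACT, a common form of the sequence in which m6A is written, was counted in the longest GENCODE 29 transcript of each gene as a further description. Its median was 1.33 per kb over the 17 enzymes, 1.20 over the transporters, 0.940 over the flux regulators and 1.21 over 10 other hypoxia genes, against 0.909 over 16662 tested genes. VEGFA held 20 of these words, and EGLN3 and LDHB held 0. No m6A was measured in these libraries.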

How the data were processed

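RNA-seq of K562 cells was analysed in 6 libraries, 2 a group, with groups (shCTR, shMETTL3, shMETTL14) and replicate numbers taken from the labels. Poly(A) mRNA was enriched with oligo(dT) beads. The authors deposited 1 table of raw read counts per gene, not normalized, with 61661 rows: 60675 carry Ensembl identifiers and 986 lie outside the annotation, holding 0.635% to 0.703% of reads. The submitters' processing notes name HTSeq 0.6.1 and hg38, and the aligner, annotation release and strand setting are not given in the sources used here, so reads of overlapping antisense genes cannot be told apart. Columns were matched to samples by group name and replicate number. Symbols came from a names table (56558) or GENCODE 29 (497).

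Counts were filtered with filterByExpr (minimum count 10), scaled by TMM (factors 0.980 to 1.02) and tested with the edgeR 4.0.16 quasi-likelihood test in R 4.3.3, in 1 fit over the 6 libraries, with Benjamini-Hochberg adjustment over 17686 genes and a threshold of 0.05. Levels are CPM, divided by merged GENCODE 29 exon length where genes are compared. Coordinates of genes are from GENCODE 29 on GRCh38. On counts simulated for shMETTL3 against shCTR (3 data sets, a mean of 17014 genes), the test recovered 92.7% of genes changed 2-fold and 80.3% of genes changed 1.5-fold, and 7.94% of its calls were false. The changed genes were drawn only from well-read genes, so the recovery rates do not cover genes with few reads such as ADM and SLC16A3. Replicates were distinct libraries: the chi-square between them averaged 6.21 per gene in shCTR, 3.40 in shMETTL3 and 2.81 in shMETTL14, where counting noise gives 1. Rows for pseudogenes of 17 of the genes numbered 157, of which 75 held reads, and they held 1.51% of TPI1's reads, 1.12% of PGAM1's and 0.466% of GAPDH's, beside BNIP3's.

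The alternatives were DESeq2 1.42.0, its size factors in edgeR, library size alone, no filter on low counts, the compared groups only, a replicate block, a correction for GC content and length (mgcv 1.9.3, for the 94.2% of tested genes with a value) with and without the block, and leaving out each library. All 36 genes were named whatever their values. From the wider lists, the genes named were at most 5 rises and 5 falls past the test in each comparison with shCTR, where the 4 libraries compared each held at least 10 reads and the groups did not overlap. The genes and lists were chosen with earlier results of these data known. A gene of the wider lists that met this rule is not reported here.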

Additional observations from a re-analysis of the deposited data

Results flagged for a closer look

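For 5 genes the knockdowns moved to opposite sides of shCTR in every library and differed from each other in a direct test (edgeR, shMETTL3 against shMETTL14). How many of all genes tested met this rule was not counted. Over all genes, libraries did not overlap in 56.0% for shMETTL3 against shCTR, 48.9% for shMETTL14 against shCTR and 56.7% between the knockdowns. Of all genes, 12.1% differed in the direct test. The log2 difference was 0.5857 for VEGFA, -1.156 for EGLN3, -0.4549 for EPAS1, -0.3982 for BNIP3L and -0.1852 for TPI1. VEGFA alone passed against shCTR in both knockdowns, and TPI1 and BNIP3L passed in neither. TPI1, with an adjusted p of 0.0406, lost the call without any 1 of the 4 knockdown libraries (adjusted p from 0.136 to 0.3), and BNIP3L lost it without shMETTL3 replicate 2 (0.0947) or shMETTL14 replicate 2 (0.0922).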

How the results depend on the processing

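DESeq2 called 9 of the 35 genes in shMETTL3 against shCTR, with no adjusted p for ADM, and called 1881, 763 and 1327 genes over all in shMETTL3 against shCTR, shMETTL14 against shCTR and shMETTL3 against shMETTL14. With library size alone, 743 genes rose and 443 fell in shMETTL14 against shCTR. With no filter on low counts, 766 genes passed in shMETTL14 against shCTR. The GC and length correction gave 16 of the 35 between the knockdowns. With the replicate block as well, it gave 6 in shMETTL14 against shCTR, 18 between the knockdowns, and 2175 and 3610 genes over all in those comparisons. The deviations of same-numbered libraries had correlations of 0.0614, 0.00511 and -0.0200 across genes. Whether such libraries shared a batch was not tested. The replicate block alone gave 14, 3 and 13 of the 35 genes, and 3264, 1459 and 2478 over all.

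Without 1 library, 5 to 13, 1 to 5 and 4 to 13 of the 35 genes passed in those 3 comparisons, and 1102 to 3569, 341 to 1913 and 942 to 2953 of all genes.

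The median log2 fold change of the enzymes in shMETTL3 was -0.0475 with library size alone, where that of all genes tested was 0.0584. It was -0.1452 with the GC and length correction with or without the block, and -0.1325 to -0.062 without 1 library. Between the knockdowns it was -0.134 with the correction and -0.1341 with the block added. For the 18 tested genes outside the enzymes, in shMETTL3, the median was 0.0855 with library size alone and -0.041 to 0.0428 without 1 library. With no filter it was 0.0909 over 19 genes, since CA9, with 1 read, was then included. In shMETTL14 the median of the 18 genes was 0.0802 with library size alone, against 0.0255 over all genes tested. It was 0.0749 with the correction, 0.0751 with the block added and 0.0528 to 0.0862 without 1 library. For these 18 between the knockdowns it ran from -0.115 to -0.0443 without 1 library. The cause of these shifts was not tested.

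Signs turned only for genes that did not pass in either setting. In shMETTL3, with library size alone, HK1 had 0.0442, PGAM1 0.0253 and SLC16A1 0.021. With the correction, PFKL had -0.0551 and SLC16A1 0.0095, and with the block added -0.0558 and 0.0096. Without 1 library, HK1 ran from -0.0592 to 0.0322, PGAM1 from -0.0903 to 0.027 and HIF1A from -0.0185 to 0.2029. In shMETTL14, library size alone gave PFKM 0.0208 and ALDOA 0.0183. The correction gave GPI -0.0107, ALDOC -0.0057, PGK1 0.0044 and SLC16A3 -0.0431, and with the block added -0.0099, -0.0058, 0.0045 and -0.0385. SLC2A3 had -0.0005 with DESeq2 or its size factors and -0.0027 with no filter. Without 1 library the ranges in shMETTL14 were -0.0396 to 0.0746 for GPI, -0.0305 to 0.0192 for PFKM, -0.0848 to 0.0722 for ALDOA, -0.0499 to 0.1052 for ALDOC, -0.0637 to 0.0094 for PGK1, -0.0565 to 0.0879 for ENO1, -0.0004 to 0.1056 for ENO2, -0.0141 to 0.016 for SLC2A3, -0.1028 to 0.152 for SLC16A3, -0.0403 to 0.1339 for PDK1, -0.9467 to 0.2283 for ADM and -0.1147 to 0.0304 for PFKFB4.

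Of the other values of single genes, with 1 library left out 95 were past the test no longer and 5 newly past it, and 534 kept their direction and side. Under the other settings these numbers were 39, 17 and 804. At this depth, a gene with few reads such as ADM or SLC16A3 could be read only with wide error, and changes under 1.5-fold were not among those simulated.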
